A study of Mus musculus with 24 samples.

Results

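Glutathione S-transferases join the tripeptide glutathione to electrophilic compounds, among them drugs, carcinogens and the aldehydes that form when membrane lipids are oxidised, and the conjugates are then exported from the cell. The soluble enzymes fall into classes named by Greek letters that differ in the substrates they prefer, and a separate microsomal family sits in membranes. Several of the genes are textbook targets of NRF2, the transcription factor that switches on antioxidant genes through the antioxidant response element. The genes described here were 9 members of this family, taken from the 34797 gene names on the array: Gsta3 and Gsta4 of the alpha class, Gstm1 and Gstm2 of the mu class, Gstp1 of the pi class, Gstt1 and Gstt3 of the theta class, Gsto1 of the omega class and the microsomal Mgst1. Every probe that carried one of these gene names was used, which gave 16 probes, and 6 of the 9 genes had several probes. Probes of one gene are numbered after a hyphen, with 1 for the brightest over the 24 arrays.

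Mammary gland RNA of female BALB/c and SPRET/EiJ mice was measured on 24 Agilent arrays of a single colour, in 8 groups of 3 biological replicates, labelled A to C. BALB/c mice belong to a widely used laboratory strain, whereas the inbred SPRET/EiJ line goes back to a wild-caught relative of the house mouse, Mus spretus. The irradiated (LDIR) mice received a whole-body X-ray dose of 10 cGy at 8 to 9 weeks of age and the sham mice none, and tissue was taken 2, 4 and 8 weeks later in BALB/c and 4 weeks later in SPRET/EiJ. Levels are given as log2 intensity relative to the 75th percentile of the same array, so that 0 is that percentile and a step of 1 is a doubling. Every array measured each of the 16 probes well above background.

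The probes are 60 bases long and their coordinates are those of the files (build mm9). The annotation of exons and untranslated regions of that build was not used here. The sequences shown first are those of both Gstp1 probes, because these probes gave different strain differences. The probe Gstp1-1 lies on chr19:4035908-4036723 (minus strand), a span of 816 bases for 60 bases of probe, and Gstp1-2 lies on chr19:4037306-4037365 (minus strand).
Gstp1-1: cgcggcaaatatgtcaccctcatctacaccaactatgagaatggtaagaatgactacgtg
Gstp1-2: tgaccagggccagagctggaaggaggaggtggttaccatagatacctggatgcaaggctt
The RefSeq transcripts that the files list for Gstp1-2 belong to both Gstp1 and its neighbour Gstp2, whereas those listed for Gstp1-1 belong to Gstp1 alone. For the same reason the first 30 bases of both Gsta3 probes are given, from chr1:21255189-21255248 (Gsta3-1) and chr1:21255043-21255102 (Gsta3-2) (both plus strand).
Gsta3-1: tgacgaggaacggccggatgctctctagtt
Gsta3-2: attcaggcaactataagtacatagccccca
The first 30 bases of the only probes of Gstt3 (chr10:75236966-75237025, minus strand) and Gsto1 (chr19:47939128-47939187, plus strand) are given because these genes had the largest strain differences of the 16 probes in sham tissue.
Gstt3: gttgcttggtatgtcctgactttccaaatt
Gsto1: ccatccccaaggccatcacctctggtttga

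The brightest probes of Gstm1, Gstm2 and Gstt1 each hold the letters AATAAA, the polyadenylation signal, which is set in capitals in a window of 30 bases. The probes Gstm2-1 and Gstt1-1 lie on chr3:107784622-107784681 and chr10:75246560-75246619 (both minus strand). The files place Gstm1-1 on chr5:117082490-117082549 (minus strand), whereas the other Gstm1 probe lies on chr3:107815595-107815654, so the locus that Gstm1-1 reports is uncertain.
Gstm1-1: tgtctcatctacAATAAAgtctgaaacaca
Gstm2-1: cccatttggttctcAATAAAgtgtgaatca
Gstt1-1: ttgagtctgggtAATAAActggggcttgat
The longest run of bases that a member probe shared with a probe of another glutathione transferase gene was 13, between Gstp1-1 and a Gstp2 probe, and for the other 15 probes it was between 7 and 12.

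Promoter sequences of 300 bases (250 before and 50 after a transcription start) were taken from RefSeq (build GRCm38.p6), with 11 promoters for 8 of the 9 genes and none for Gsta4. They were searched on both strands for the core of the antioxidant response element, TGACNNNGC, the only motif searched. It was found in 2 of the 11 promoters, those of Gsta3 (121 bases before the start, same strand as the gene) and Mgst1 (56 bases before the start, other strand, so that it reads reversed and complemented), against 12.4% of all 32851 promoters of this length. The matches are set in capitals in their surroundings, taken from chr1:21240335-21240634 and chr6:138140277-138140576 of that build.
Gsta3: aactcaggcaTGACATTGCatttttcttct
Mgst1: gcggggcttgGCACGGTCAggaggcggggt

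Markers of the labelled tissue were present on every array: all 8 luminal epithelial, all 6 basal epithelial and all 8 white adipocyte markers were well above background on all 24 arrays. By lymphocyte markers 3 arrays stood apart, BALB/c 8-week sham A, BALB/c 8-week LDIR B and SPRET/EiJ 4-week LDIR A. Their mean log2 level of 5 T lymphocyte markers was 3.47 to 4.10, against -2.47 to -0.45 on the other 21 arrays, and that of 4 B lymphocyte markers was 3.77 to 4.38 against -3.02 to -1.27. On the other arrays at least 3 of the 5 and 3 of the 4 markers were still well above background. These arrays are called lymphocyte-rich below, and results that rest on them are given with and without them.

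The glutathione S-transferase genes were low on the lymphocyte-rich arrays. Against the mean of the other 2 arrays of its group, the level was lower for 15 of 16 probes on BALB/c 8-week sham A (median log2 difference -0.84), for all 16 on BALB/c 8-week LDIR B (median -0.84) and for all 16 on SPRET/EiJ LDIR A (median -1.28). Over all probes of the arrays the corresponding medians were 0.44, -0.03 and -0.31. Gsta4, whose enzyme is known for conjugating 4-hydroxynonenal, an aldehyde of lipid oxidation, differed most on 2 of the 3 arrays. Its level was 0.49, 0.27 and -0.66 on the lymphocyte-rich arrays, in the order above. The other 2 arrays of each group had 1.67 and 1.90, 2.04 and 1.75, and 1.35 and 1.44. The pi class gene Gstp1 differed least among the genes by their brightest probes, with -0.39, -0.41 and -0.60. The files list no RefSeq gene for Gstt1-2 (chr10:75259864-75259923, minus strand), and this probe differed by 0.17, -0.05 and -0.03, whereas Gstt1-1 differed by -0.97, -0.76 and -1.65.

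**Figure D1:**
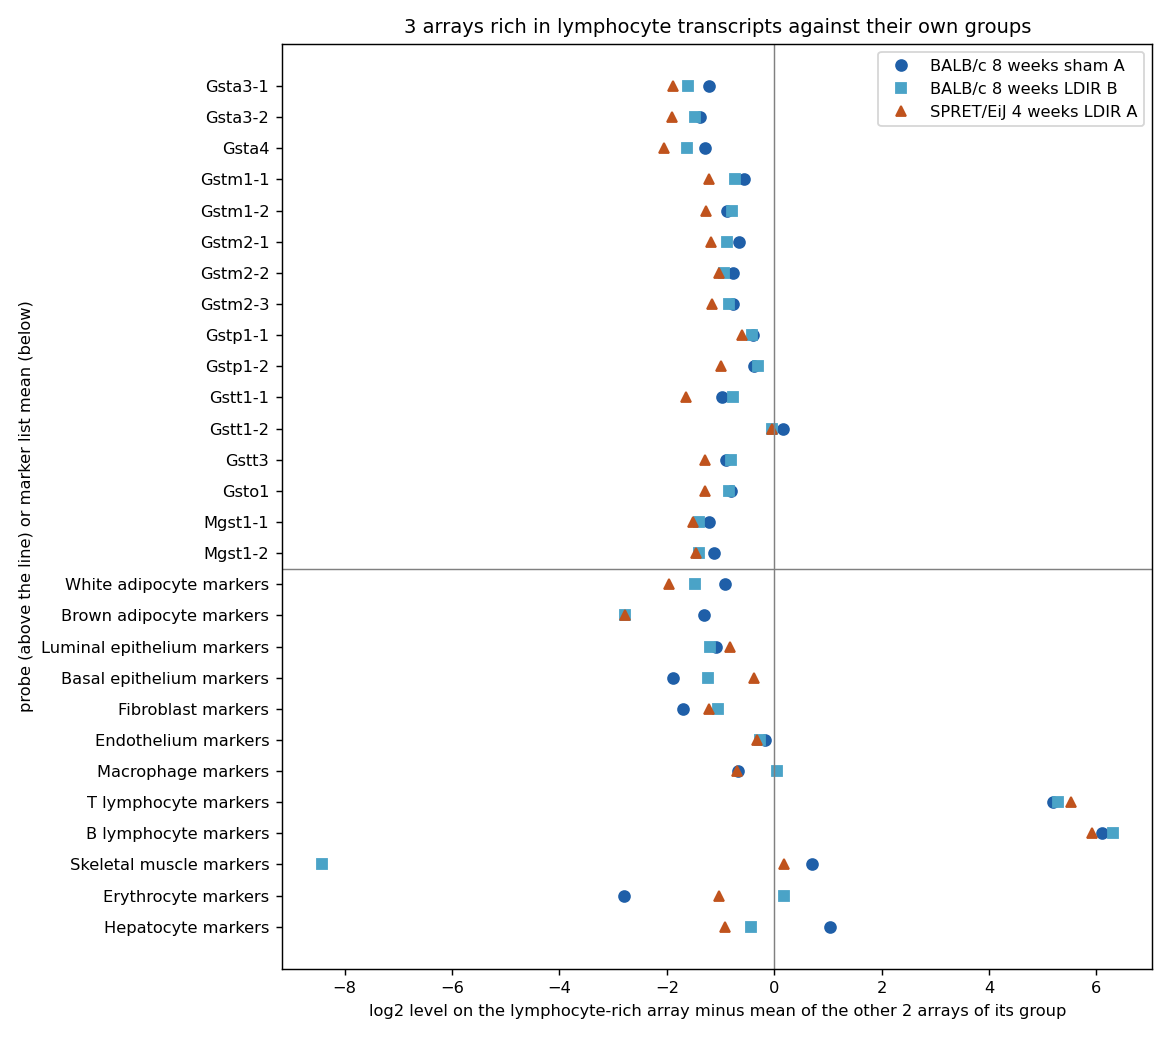
Log2 level on each of the 3 lymphocyte-rich arrays minus the mean of the other 2 arrays of its group (x axis), for the 16 glutathione S-transferase probes above the horizontal line and the means of 12 marker lists below it. The probes lie between -2.05 and 0.17, whereas the T and B lymphocyte lists lie between 5.20 and 6.31.

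Other markers moved on the same arrays. The white adipocyte list was lower by 0.91, 1.48 and 1.95 on the log2 scale and the fibroblast list by 1.69, 1.05 and 1.22. The brown adipocyte list was lower by 1.30, 2.78 and 2.77 and the basal epithelial list by 1.88, 1.23 and 0.38. For the luminal epithelial list the log2 differences were -1.08, -1.20 and -0.83. On BALB/c 8-week LDIR B the skeletal muscle list was lower by 8.43, but it was higher by 0.71 on BALB/c 8-week sham A and by 0.18 on SPRET/EiJ LDIR A. Its mean ranged from -4.46 to 5.51 over the 21 arrays that were not lymphocyte-rich. In bulk tissue, fewer cells of a type and less RNA per cell cannot be told apart, and the part of these cell types in the levels of the transferase genes was not tested.

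**Figure D2:**
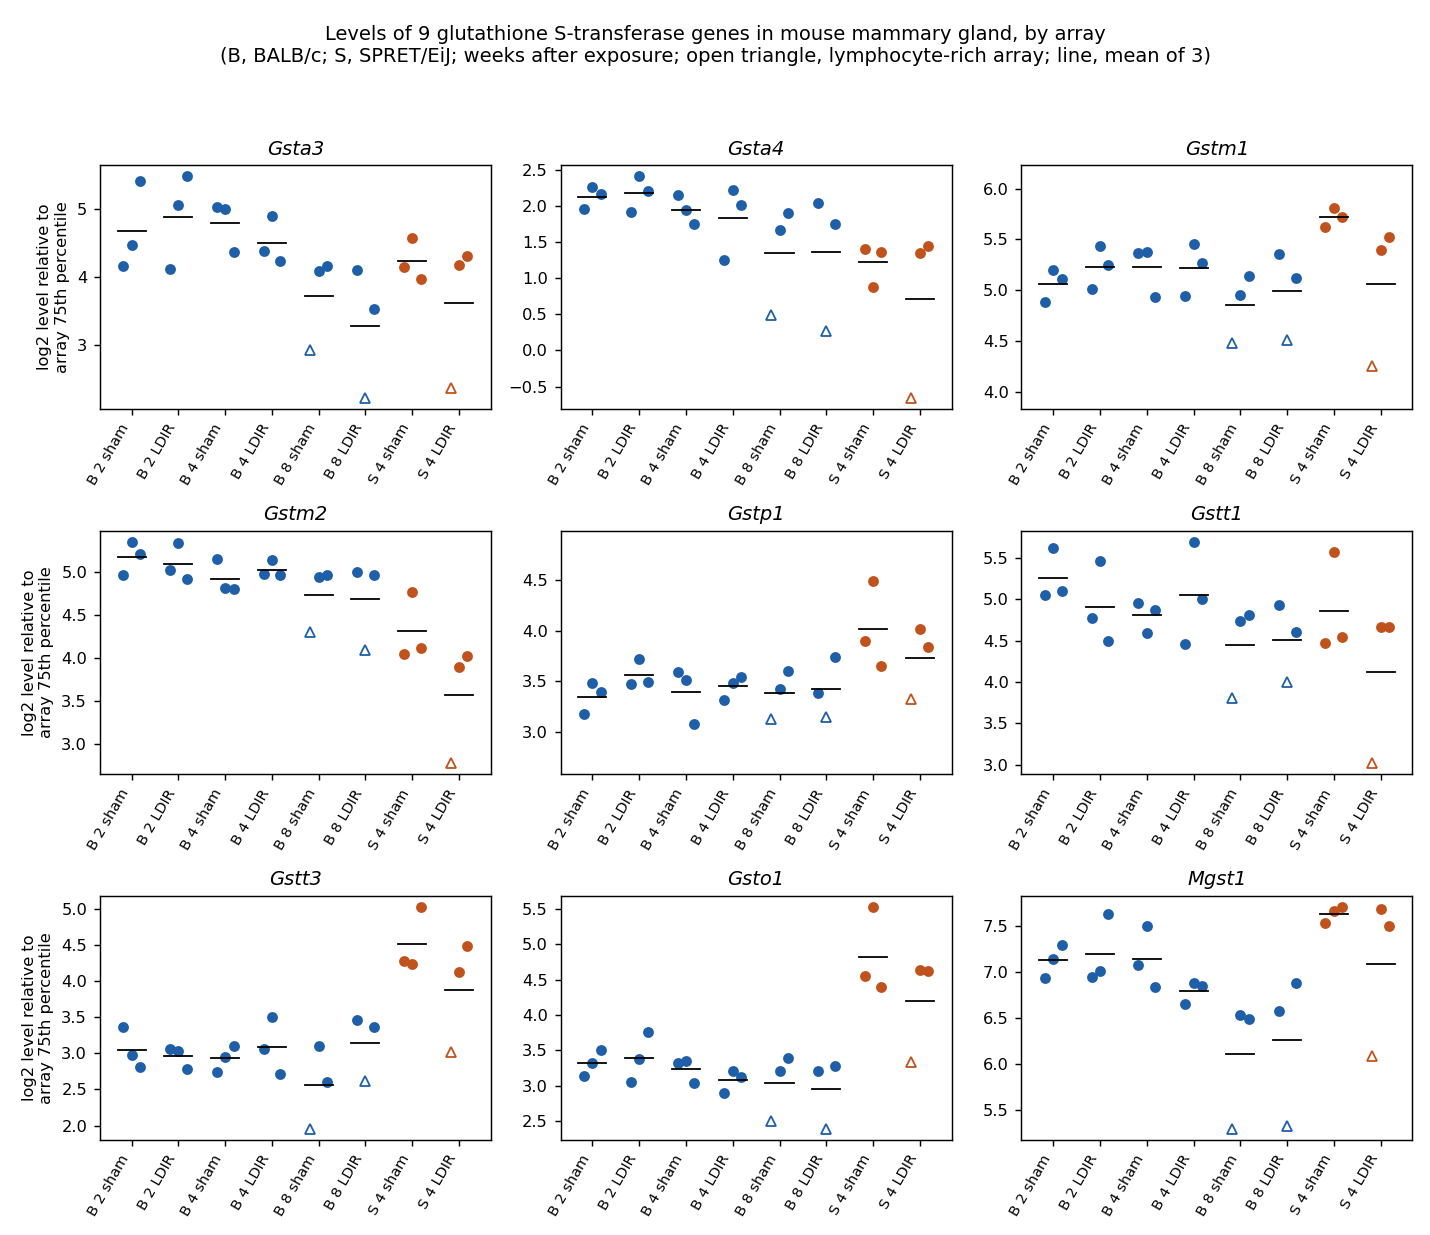
Log2 level relative to the 75th percentile of the array (y axis) of the brightest probe of each of the 9 genes on the 24 arrays, in the 8 groups (x axis; B, BALB/c; S, SPRET/EiJ; the number is weeks after exposure; lines are means of 3 arrays). Gstt3 and Gsto1 lay higher in SPRET/EiJ sham tissue than on any BALB/c array, and the open triangles, the lymphocyte-rich arrays, are the lowest of their group in every panel.

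Which members differed between the strains was first asked in sham tissue at 4 weeks, with 3 arrays against 3. The thresholds were an unadjusted p under 0.001 and a change over 1.5-fold, as in the methods of the study, in limma's moderated test. They were passed by 1 of the 16 probes, that of Gstt3, beside 8.9% of the 55681 probes on the array. The theta class gene Gstt3 was lower in BALB/c. Its levels were 2.75, 2.95 and 3.10 on the BALB/c arrays and 4.29, 4.24 and 5.03 on the SPRET/EiJ arrays, so that the groups did not overlap. The log2 difference (BALB/c minus SPRET/EiJ) was -1.59 ± 0.26 (SE, n = 3 and 3), a fold of 3.01 (adjusted p = 0.0091). The call did not withstand the loss of an array: without any one of the 3 BALB/c arrays, or without SPRET/EiJ sham A or B, the p of limma was over 0.001. Over the 6 fits that left out an array, the difference stayed between -1.73 and -1.33 and the unadjusted limma p between 0.0010 and 0.0042. The call was also lost by the methods' t-test, with quantile normalization (-1.37 ± 0.30) and with slide as a fixed block over all 24 arrays (-1.88 ± 0.76).

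Gsto1 and Gstp1 had differences of similar size whose unadjusted p was over 0.001. Gsto1, whose enzyme also reduces oxidised thiols, measured 3.32, 3.35 and 3.04 in BALB/c sham tissue and 4.56, 5.52 and 4.39 in SPRET/EiJ sham tissue. Its difference was -1.59 ± 0.32 (adjusted p = 0.020), and the groups did not overlap. The probe Gstp1-2 measured 2.81, 2.50 and 2.12 in BALB/c and 3.79, 4.13 and 3.48 in SPRET/EiJ, a difference of -1.32 ± 0.26 (adjusted p = 0.017). The other Gstp1 probe gave -0.62 ± 0.28 (adjusted p = 0.18).

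The mu class genes went in different directions. All 3 probes of Gstm2 had higher values in BALB/c sham tissue, with log2 differences of 0.62, 0.88 and 0.85, and their smallest adjusted p was 0.064. Gstm2-1 measured 5.16, 4.81 and 4.80 in BALB/c and 4.05, 4.77 and 4.11 in SPRET/EiJ, where SPRET/EiJ sham B nearly reached the lowest BALB/c array. Both probes of Gstm1 had lower values in BALB/c (-0.50 and -0.46, adjusted p = 0.13 and 0.21). Gsta4 of the alpha class measured 2.14, 1.93 and 1.75 in BALB/c and 1.40, 0.88 and 1.37 in SPRET/EiJ. The groups did not overlap, and the difference of 0.73 ± 0.22 did not pass (adjusted p = 0.066).

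The remaining genes gave smaller or contrary values. Mgst1, a membrane-bound transferase and peroxidase, measured 7.08, 7.49 and 6.84 in BALB/c and 7.53, 7.66 and 7.70 in SPRET/EiJ sham tissue. Its probes differed by -0.49 ± 0.21 and -0.31 ± 0.23. For Gstt1 the differences were -0.05 (95% interval -0.85 to 0.74) and -0.00 (-0.52 to 0.51) on the log2 scale, so that the first probe could lie anywhere from 0.56 to 1.67 times the SPRET/EiJ level. Over the 16 probes the median difference was -0.38, beside -0.08 over all probes of the array.

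**Figure D3:**
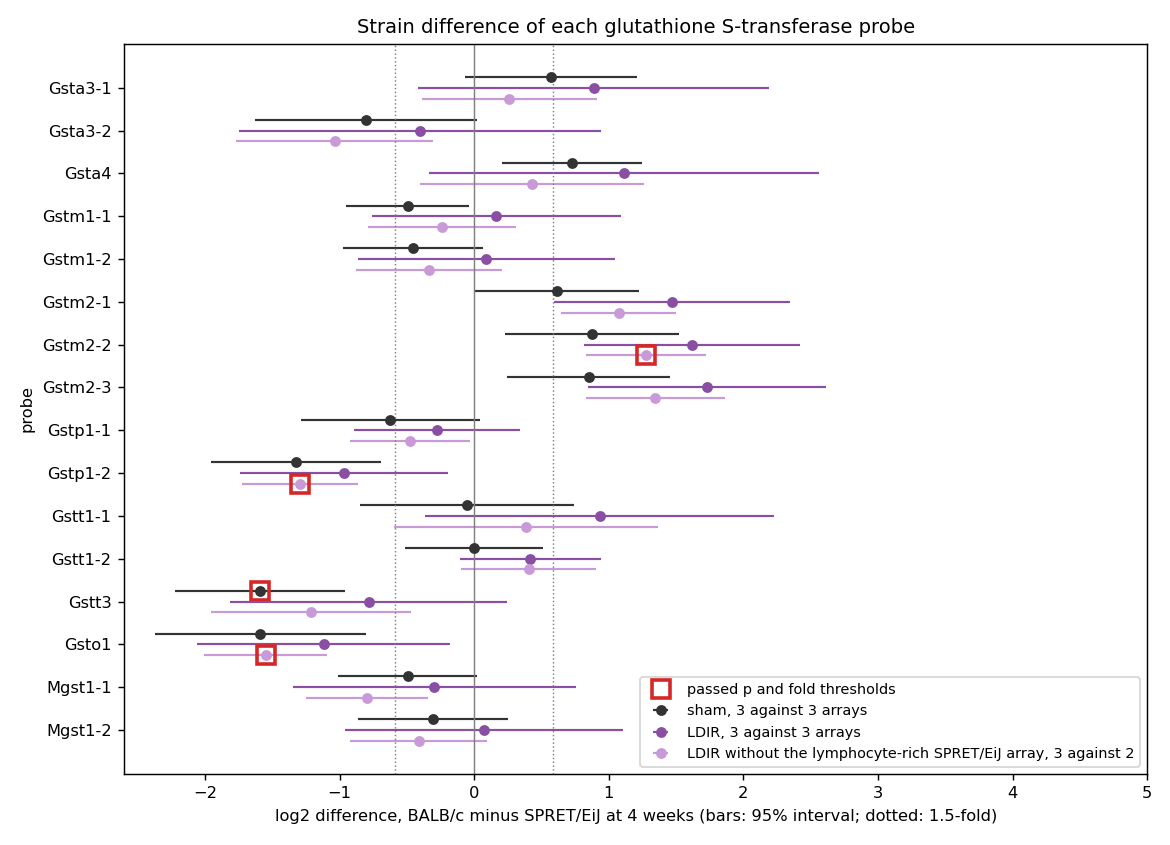
Strain difference at 4 weeks on the log2 scale (x axis; positive, higher in BALB/c) of each of the 16 probes with its 95% interval, in sham tissue, in LDIR tissue and in LDIR tissue without the lymphocyte-rich SPRET/EiJ array. Dotted lines mark 1.5-fold, and boxes mark the 4 values that passed both thresholds: Gstt3 in sham tissue and Gstm2-2, Gstp1-2 and Gsto1 in LDIR tissue without that array.

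In LDIR tissue at 4 weeks none of the 16 probes passed, beside 5.66% of all probes, although 5 probes had an unadjusted limma p under 0.05. Here the SPRET/EiJ group held 1 lymphocyte-rich array. Without it, 3 of the 16 probes passed, beside 7.9% of all probes in the same fit: Gstm2-2 (1.28 ± 0.18, adjusted p = 0.010), Gstp1-2 (-1.29 ± 0.17, adjusted p = 0.0090) and Gsto1 (-1.55 ± 0.18, adjusted p = 0.0068). Gsto1 measured 2.90, 3.21 and 3.12 in irradiated BALB/c and 4.63 and 4.62 on the other 2 SPRET/EiJ arrays, with 3.33 on the lymphocyte-rich array. Gstm2-2 measured 4.44, 4.68 and 4.53 in BALB/c and 3.20 and 3.35 in SPRET/EiJ, with 2.24 on the lymphocyte-rich array. Gstp1-2 measured 2.45, 2.49 and 2.60 in BALB/c and 3.89 and 3.73 in SPRET/EiJ, with 2.83 on the lymphocyte-rich array. For all 3 probes the strains did not overlap, with or without that array. The other probes of Gstm2 and Gstp1 did not pass. Without that array, Gstp1-1 had means of 3.45 in BALB/c and 3.93 in SPRET/EiJ LDIR tissue. Those of Gstm2-1 were 5.03 and 3.96, and those of Gstm2-3 were 1.25 and -0.09. Gstt3 did not pass in LDIR tissue (-0.78 ± 0.43 with the array, -1.21 ± 0.29 without it). The sham and LDIR comparisons use different arrays.

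Slide and several marker lists also differed between the strains. The SPRET/EiJ arrays lay on slide 3 and the BALB/c 4-week arrays on slides 1 and 2, so that no slide held 4-week tissue of both strains, and strain and slide cannot be told apart in sham or in LDIR tissue. The mean of the 8 luminal epithelial markers was 2.67 to 3.79 on the BALB/c sham arrays and 0.18 to 2.61 on the SPRET/EiJ sham arrays. That of the 6 basal markers was 2.43 to 2.79 against 0.99 to 1.94, and that of the 8 white adipocyte markers was 6.49 to 6.85 against 6.24 to 7.02. The T lymphocyte list (-1.57 to -0.45 against -2.47 to -1.92) and the skeletal muscle list (-3.54 to 0.09 against -4.41 to -3.93) did not overlap between the strains either. The part of these differences in those of the transferase genes was not tested.

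Probes of one gene did not always give the same strain difference. For each gene with several probes, the difference between 2 probes on the same array was compared between the 6 BALB/c and 6 SPRET/EiJ arrays of 4 weeks, sham and LDIR arrays alike. Probes bind their targets unequally, so only the change of this difference between the strains is read, not its size. This test was chosen after the values had been seen. It was an exact two-sided permutation test over 924 relabellings, whose smallest possible p is 0.0022, with Benjamini-Hochberg adjustment over 7 probe pairs. Gsta3, an alpha class transferase known in mice for conjugating the epoxide of aflatoxin, diverged most. Relative to Gsta3-1, probe Gsta3-2 read 1.33 ± 0.07 (SE, n = 6 and 6) log2 units higher in SPRET/EiJ, a fold of 2.52 (exact permutation p = 0.0022, adjusted p = 0.0051). The probe difference spanned -1.45 to -1.23 on the 6 BALB/c arrays and -0.24 to 0.19 on the 6 SPRET/EiJ arrays. Over all 18 BALB/c arrays, 2 of which shared slide 3 with the SPRET/EiJ arrays, its highest value was -0.96. The BALB/c arrays of every time point thus lay below the 6 SPRET/EiJ arrays, which were all of 4 weeks. In sham tissue this made Gsta3 higher in BALB/c by one probe (0.57 ± 0.27, adjusted p = 0.20) and lower by the other (-0.80 ± 0.34, adjusted p = 0.17), neither of which passed, and no direction can be given for Gsta3.

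Gstp1 diverged next. Gstp1-2, the probe whose listed transcripts include Gstp2, read 0.70 ± 0.08 log2 units higher in SPRET/EiJ relative to Gstp1-1, a fold of 1.62 (exact permutation p = 0.0022, adjusted p = 0.0051). The probe difference was -1.01 to -0.78 on the BALB/c arrays and -0.50 to -0.12 on the SPRET/EiJ arrays, without overlap. For Mgst1 the second probe read 0.28 ± 0.04 lower in SPRET/EiJ (exact permutation p = 0.0022, adjusted p = 0.0051), and relative to Gstm2-1 the probes Gstm2-2 and Gstm2-3 read 0.21 ± 0.04 and 0.25 ± 0.08 lower (exact permutation, adjusted p = 0.011 and 0.024). For Gstm1 the probes differed between strains by 0.02 ± 0.07 (exact permutation p = 0.82) and for Gstt1 by 0.23 ± 0.36 (exact permutation p = 0.58). Without the lymphocyte-rich array the 2 largest divergences were 1.34 and 0.75, and the one of Gstt1 turned from 0.23 to -0.05. The sequence of SPRET/EiJ under these probes was not examined here. A disagreement in which one probe passed the thresholds of the strain comparison and another differed from it by over 1 on the log2 scale occurred for none of the genes. With 3 arrays against 3 it could not occur, because the only probe that passed was that of Gstt3, the only probe of its gene. Its absence there says nothing about how well the probes agree.

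**Figure D4:**
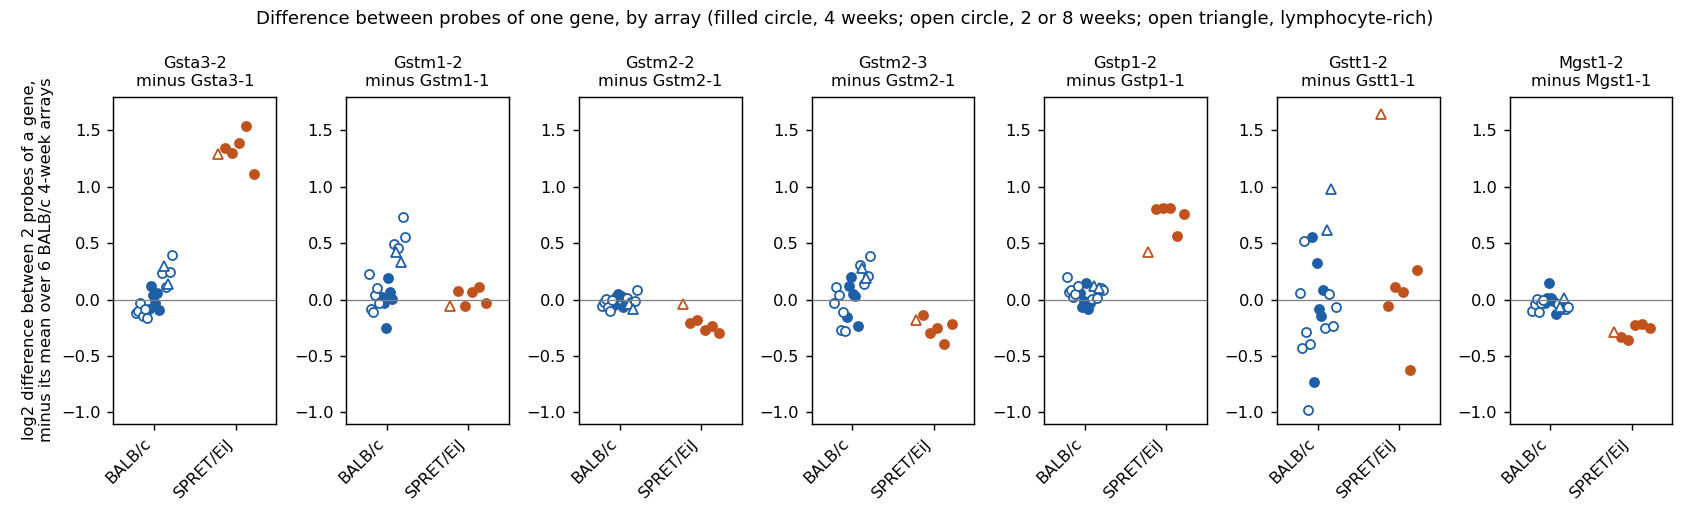
Log2 difference between 2 probes of the same gene on each array, minus its mean over the 6 BALB/c 4-week arrays (y axis), for 7 probe pairs, with 18 BALB/c and 6 SPRET/EiJ arrays (x axis). The SPRET/EiJ values lie between 1.12 and 1.54 for Gsta3 and between 0.43 and 0.81 for Gstp1, above all 18 BALB/c values, whereas for Gstm1 and Gstt1 the strains overlap.

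LDIR changes were asked for in each strain and time, where the p had to be under 0.05 before adjustment and the change over 1.5-fold. In BALB/c none of the 16 probes passed at 2 weeks (3.06% of all probes passed), 4 weeks (4.83%) or 8 weeks (1.92%). At each time none had an unadjusted limma p under 0.05 and none passed by the methods' t-test. The median change of the 16 probes was 0.11, 0.02 and -0.01 at the 3 times, beside -0.02, 0.02 and -0.14 over all probes. A miss of the thresholds does not show that a gene was unchanged. The 95% intervals of the 16 probes reached from -1.07 to 1.37 at 2 weeks, from -0.997 to 1.03 at 4 weeks and from -1.98 to 1.58 at 8 weeks, so that changes of up to 2.58-fold, 2.04-fold and 3.95-fold lie within them.

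The member with the largest change in BALB/c was Gstt3 at 8 weeks. It measured 3.46, 2.62 and 3.37 after LDIR and 1.96, 3.10 and 2.61 after sham exposure, where the lowest value of each group was that of its lymphocyte-rich array. The groups overlapped and the change was 0.60 ± 0.40 (adjusted p = 1.0), and 0.56 ± 0.24 without both of these arrays, when again none of the 16 probes passed (4.35% of all probes did). With the 9 LDIR and 9 sham BALB/c arrays of all times in one fit, again none of the 16 probes passed or had an unadjusted limma p under 0.05 (1.16% of all probes passed). The change closest to passing was that of Gstt1-2, 0.19 ± 0.10 (adjusted p = 0.98). It was under 1.5-fold, also without the lymphocyte-rich arrays (0.23 ± 0.09, adjusted p = 0.61), where none of the 16 probes passed either (1.74% of all probes did). In that pooled fit the intervals reached from -0.78 to 0.60, a narrower bound of 1.72-fold.

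In SPRET/EiJ at 4 weeks all 16 probes had lower values after LDIR, by 0.08 to 0.75 on the log2 scale (median -0.63, beside 0.03 over all probes). None passed or had an unadjusted limma p under 0.05, beside 2.2% of all probes that passed. The size of these changes rested largely on LDIR A, the lymphocyte-rich array. Gstm1, whose human counterpart is deleted in a large share of people, measured 4.25, 5.39 and 5.52 after LDIR and 5.63, 5.81 and 5.72 after sham exposure. Its change was -0.66 ± 0.38 (adjusted p = 0.97) and -0.26 ± 0.20 without LDIR A. Without that array the 16 changes lay between -0.35 and 0.18 (median -0.18, beside 0.06 over all probes), 13 of them negative, and none passed (3.78% of all probes did). The test of whether LDIR acted differently in the 2 strains, the interaction of strain and treatment over the 12 arrays of 4 weeks, was passed by none of the 16 probes, none of which had an unadjusted limma p under 0.05 (3.6% of all probes passed). The interaction (change in BALB/c minus change in SPRET/EiJ) was positive for all 16 probes, with a median of 0.44. Without LDIR A it had a median of 0.13, was positive for 11 probes and was again passed by none (4.55% of all probes passed).

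**Figure D5:**
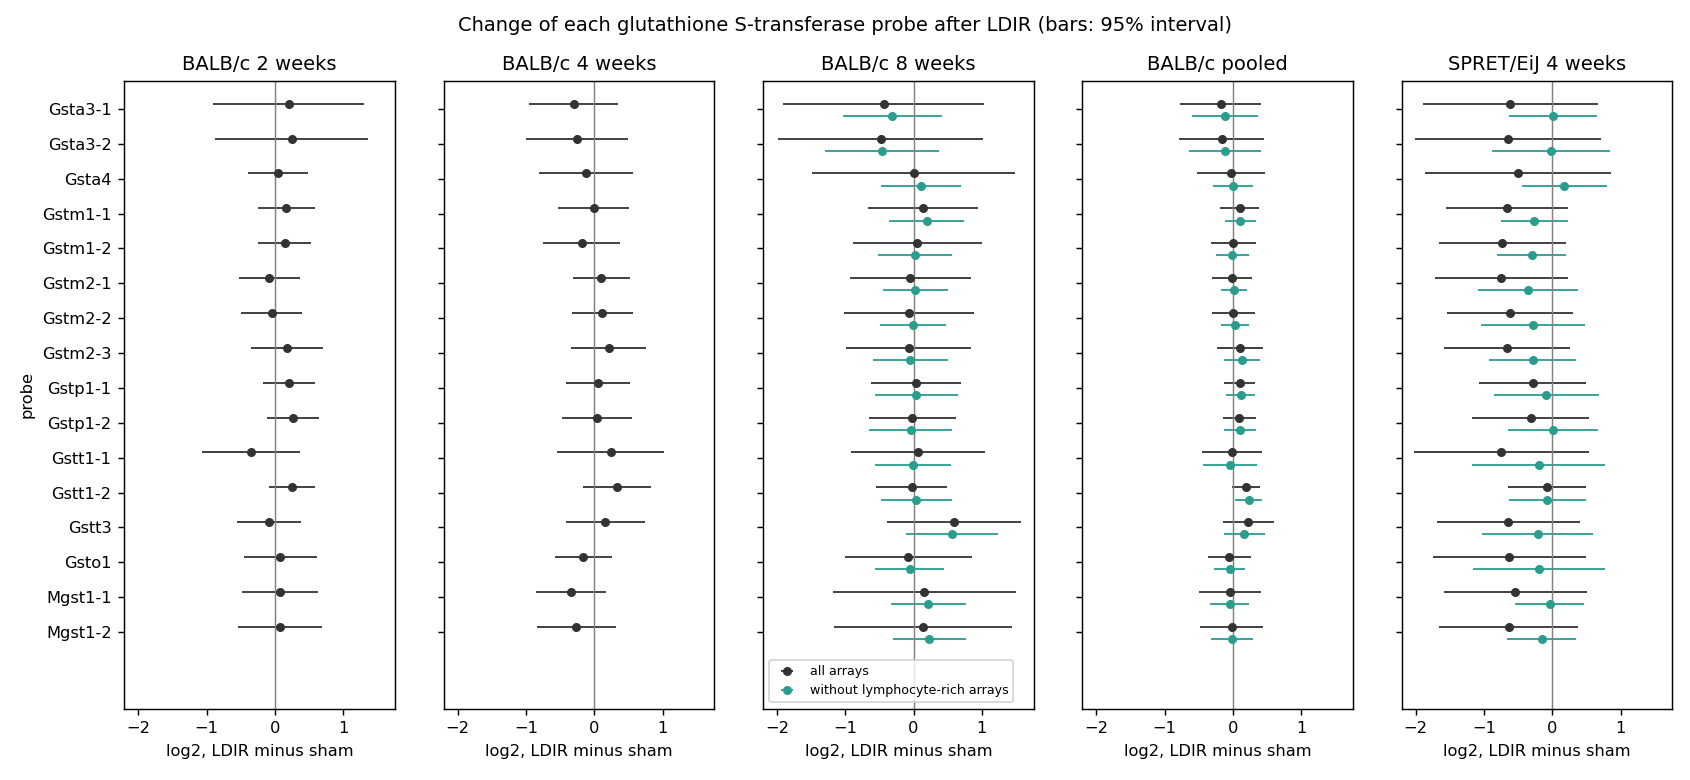
Log2 change after LDIR (x axis; LDIR minus sham) of each of the 16 probes with its 95% interval, in BALB/c at 2, 4 and 8 weeks and pooled over these times and in SPRET/EiJ at 4 weeks, with all arrays and without the lymphocyte-rich arrays. All SPRET/EiJ values lie below 0 with all arrays, and lie between -0.35 and 0.18 without the lymphocyte-rich array.

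Between sham BALB/c tissues of 8 and 2 weeks after exposure, 2 of the 16 probes passed the same thresholds, beside 16.2% of all probes. Both were probes of Mgst1, which fell by 1.02 on the log2 scale (SE 0.38 and 0.37, 2.02-fold, adjusted p = 0.26 and 0.24). Mgst1-1 measured 6.93, 7.14 and 7.29 at 2 weeks and 5.30, 6.53 and 6.48 at 8 weeks, without overlap, and the lowest value was that of the lymphocyte-rich sham A. Without sham A the fall was smaller, -0.61 and -0.64 (adjusted p = 0.12 and 0.13), and still passed. Gstm1-2 then also passed with 0.60 ± 0.18 (adjusted p = 0.13), beside 21.2% of all probes. The brighter probe Gstm1-1 did not pass, with means of 5.05 at 8 weeks without sham A and 5.06 at 2 weeks. The Mgst1 calls were lost by the methods' t-test and with slide as a fixed block over all 24 arrays. Without any one of the 3 sham arrays of 2 weeks neither Mgst1 probe passed, with unadjusted limma p of up to 0.11. The white adipocyte list had means of 6.44 to 6.90 at 2 weeks and 5.42 to 6.40 at 8 weeks, and the skeletal muscle list of -3.84 to 4.65 and 0.98 to 3.00. Their part was not tested. The 2-week arrays lay on slide 1 and the 8-week sham arrays on slide 2, so that time and slide cannot be told apart.

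Across the 8 groups the members kept different orders. Gsto1 and Gstt3 had their highest means in SPRET/EiJ sham tissue (4.82 ± 0.61 and 4.52 ± 0.44, SD, n = 3), then in SPRET/EiJ LDIR tissue (4.20 ± 0.75 and 3.88 ± 0.76), and the 6 BALB/c groups followed at 2.96 to 3.40 and 2.56 to 3.15. In Gstm2 the BALB/c groups came first at 4.69 to 5.18, followed by SPRET/EiJ sham tissue (4.31 ± 0.40) and SPRET/EiJ LDIR tissue (3.56 ± 0.69). Neighbours in these orders mostly overlapped. By their brightest probes, only Gstm1 from SPRET/EiJ sham tissue (5.72 ± 0.09) to the next group (5.23 ± 0.21) and Gstm2 from SPRET/EiJ sham to SPRET/EiJ LDIR tissue had neighbours whose arrays did not overlap, and the latter step includes the lymphocyte-rich array. For Mgst1 the highest mean was that of SPRET/EiJ sham tissue (7.63 ± 0.09) and the lowest that of BALB/c 8-week sham tissue (6.11 ± 0.70). Gsta4 had 10 spots on each array, with an SD between spots of 0.031 to 0.078 on the log2 scale, whereas its level ranged from 1.25 to 2.41 over the 16 BALB/c arrays that were not lymphocyte-rich.

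The genes whose levels followed a member most closely were taken by Pearson's r over the 18 BALB/c arrays among 22781 genes, and are given as a description without a test. The arrays share 6 treatment and time groups and include 2 lymphocyte-rich arrays, so r over the other 16 arrays is given beside it. For Gsta3 the closest were Pygl, a glycogen phosphorylase (0.98 over 18 arrays, 0.94 over 16), and Gpx4, a glutathione peroxidase of lipid hydroperoxides (0.97 and 0.93). For Mgst1 they were Gys1, a glycogen synthase (0.98 and 0.94), Aldh5a1 (0.97 and 0.91) and Tmem53 (0.97 and 0.90). Gsto1 was followed by Fmo1, a flavin monooxygenase of drug metabolism (0.97 and 0.92), and Sod2, the mitochondrial superoxide dismutase (0.95 and 0.86).

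The mu class gene Gstm1 was followed by Agfg2 (0.93 and 0.82), the fatty acid transporter Cd36 (0.91 and 0.78) and its own relative Gstm6 (0.91 and 0.78). Gstm2 was followed by Syde1 (0.97 and 0.89), the collagen gene Col5a3 (0.95 and 0.85) and Rcor2 (0.94 and 0.84). Gsta4 was closest to Prkd1 (0.98 and 0.95) and Aplp2 (0.98 and 0.91), Gstp1 to Trappc2 (0.88 and 0.87) and Yif1a (0.88 and 0.83), and Gstt1 to the Wnt receptor Fzd4 (0.94 and 0.93), Rarres2 (0.94 and 0.91) and Slc2a13 (0.94 and 0.91). For Gstt3 they were Dcbld1 (0.87 and 0.75), Prickle1 (0.86 and 0.69) and Wnt9a (0.85 and 0.70). Ranked over the 16 arrays instead, the 3 closest genes of Gstt3, of Gstm1 and of Mgst1 were all different ones. For Gstt3 they were led by Upk1a (0.55 over 18 arrays, 0.88 over 16). Among the members themselves, Gsta4 and Gstm2 had r of 0.91 over 18 arrays and 0.62 over 16, and Gsta3 and Mgst1 of 0.89 and 0.73. Gstt3 and Gsto1 had 0.35 over 18 and -0.40 over 16. For Gsta3, Gsta4 and Gstp1, 1 of the 3 closest had no gene symbol and is not named.

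Of 59 other genes of glutathione metabolism and its regulation, 58 were on the array, each taken by its brightest probe. Agreement with other probes of these genes was not examined, nor was the SPRET/EiJ sequence under the probes. The shares of all probes given beside this list count every probe, of which 7304 were well above background on no array. The shares of list and array are therefore not of like probes, and a higher share in the list was not tested. In sham tissue 10 of the 58 genes (17.2%) passed the strain thresholds, beside 8.9% of all probes, 6 higher and 4 lower in BALB/c. Among the other transferases, 6 of 17 passed. For Gsta2, an alpha class gene, none of the 3 BALB/c sham arrays was well above background, and SPRET/EiJ tissue was at least 14.9-fold higher (adjusted p = 0.00093). For Gstt4, of the theta class, none of the 3 SPRET/EiJ sham arrays was well above background, and BALB/c tissue was at least 3.66-fold higher (adjusted p = 0.00024). Both bounds set the mean of the brighter group against the dimmest signals counted as well above background on the arrays of the other. Gstt2, another theta class gene, was higher in BALB/c by 2.62 ± 0.22, and the mu class gene Gstm6 by 1.89 ± 0.31. The mitochondrial Gstk1 and the microsomal Mgst2 were lower in BALB/c, by -2.04 ± 0.19 and -2.25 ± 0.22.

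Outside the transferases, Gclc, the catalytic subunit of the enzyme that limits glutathione synthesis, was higher in BALB/c by 2.58 ± 0.41, and it was the only one of 14 genes of synthesis, uptake and breakdown to pass. Gpx8, a peroxidase of the endoplasmic reticulum, was higher by 3.28 ± 0.35 (1 of 9 peroxidases), and Abcc3, an exporter of conjugates, by 2.77 ± 0.26 (1 of 6 exporters). Nqo1, a classical NRF2 target, was lower by -1.73 ± 0.26 (1 of 6 genes of the NRF2 pathway), and none of 6 genes of the xenobiotic receptors passed. The calls of Gclc, Nqo1 and Gstm6 were each lost under 8 or 9 of the alternative settings. In LDIR tissue 5 of the 58 passed (8.62%, beside 5.66% of all probes), and 8 without the lymphocyte-rich array (13.8%, beside 7.9%). Of these 8, Gsta2 (again not well above background in BALB/c), Gstt2 (2.76 ± 0.35), Gstk1 (-2.23 ± 0.28), Mgst2 (-2.93 ± 0.19), Gclc (2.53 ± 0.29) and Nqo1 (-1.63 ± 0.22) had the direction of sham tissue, and the remaining 2 were the peroxidase genes Gpx5 and Prdx6, lower in BALB/c.

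After LDIR few of these 58 genes passed the exposure thresholds, at shares near those of all probes, and none had an adjusted p under 0.05. At 2 weeks in BALB/c the only one (1.72%, beside 3.06% of all probes) was the xenobiotic receptor gene Nr1i2, which was well above background on 1 LDIR array and no sham array, so that no fold is given. At 4 weeks there were 4 (6.90%, beside 4.83%): Mgst2 (-0.65 ± 0.20), Gpx8 (-1.15 ± 0.40) and Arnt, the partner of the aryl hydrocarbon receptor (-0.82 ± 0.33), fell, and for Gsta2 no array of either group was well above background. At 8 weeks 1 gene passed (1.72%, beside 1.92%), Gpx6, which was well above background on 1 of 3 LDIR arrays and all 3 sham arrays, so that no fold is given. In SPRET/EiJ 1 passed (1.72%, beside 2.2%), Gstt2, which fell by 0.69 ± 0.29. Without the lymphocyte-rich arrays the genes that passed were at 8 weeks Gstt2 (0.77 ± 0.19), Gstt4 (0.78 ± 0.27) and the leukotriene synthase gene Ltc4s (0.65 ± 0.22), which is 5.17% of the list beside 4.35% of all probes, and in SPRET/EiJ the haem oxygenase gene Hmox1 (0.79 ± 0.28), 1.72% beside 3.78%. None of the 58 passed in the pooled BALB/c fit or in the interaction. Between sham BALB/c tissues of 8 and 2 weeks 19 of the 58 passed, 4 higher and 15 lower (32.8%, beside 16.2% of all probes), and 17 without the lymphocyte-rich array, 6 higher and 11 lower (29.3%, beside 21.2%). Of the 17 other transferases 9 passed as lower, beside 4762 of all 55681 probes. Without the lymphocyte-rich array 8 of the 17 did, beside 6958 of the 55681 probes. The 9 that were lower with all arrays were named after their values were seen. Of the soluble enzymes they were Gstz1 (-1.28 ± 0.35), Gsto2 (-1.27 ± 0.32), Gstt4 (-1.25 ± 0.40), Gstk1 (-0.92 ± 0.34), Gstm6 (-0.87 ± 0.34) and Gstt2 (-0.74 ± 0.20). Of the membrane-bound ones they were Mgst3 (-1.34 ± 0.36), Mgst2 (-0.91 ± 0.30) and Ltc4s (-0.80 ± 0.32). Of these 9, Gstm6 did not pass without the lymphocyte-rich array. The 4 higher ones, also named after their values were seen, were Gstcd (1.42 ± 0.23), Ggt7 (1.04 ± 0.21), Hmox1 (2.49 ± 0.72) and Cyp1b1 (1.64 ± 0.38). In the fit with all arrays of both groups no probe had an adjusted p under 0.05. As for Mgst1, time and slide cannot be told apart in this comparison.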

How the data were processed

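Total RNA of mammary gland was hybridised to Agilent arrays of a single colour, 3 per group. The intensity values deposited in the scanner files were the processed signals of Agilent Feature Extraction, from which the background had already been subtracted. The authors normalised each array to its 75th percentile, and of the deposited log2 values 100% lay within 0.01 of those computed here after centring. Here, log2 of the processed signal minus the 75th percentile of the array was used. Control spots entered that percentile and were left out afterwards, and 3777 outlier spots were left out from the start. None of the 59305 non-control spots per array was saturated, and spots of one probe were averaged to 55681 probes. On each array 57.1% to 72.6% of probes were well above background, and the number of arrays limits the precision.

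Differences were tested with limma 3.58.1 (R 4.3.3) over all probes, with the arrays of each comparison, and adjusted by Benjamini-Hochberg. The code was tested on simulated data. Calls needed a p under 0.001 between strains or 0.05 otherwise, and over 1.5-fold. Every member was named with all its probes, and of the other glutathione genes up to 10 that passed between strains in sham tissue, largest first, and up to 6 that passed in an LDIR comparison, and for each member the 3 genes most like it, of which 1 is not reported here. The members and gene lists were chosen with earlier results of these data known. The labels do not say that each array is a single mouse, so p-values measure only the spread between these samples. The letters A to C were taken as pairing only LDIR and sham BALB/c tissue of 2 weeks, where the deviations of same-lettered arrays correlated by 0.17, 0.48 and 0.17; the replicate block left the count there at 0. Alternatives were background correction by normexp with an offset of 50, quantile normalization, outlier spots kept, the deposited log2 values, a filter on dim probes, the methods' t-test, slide, all 24 arrays and each array left out. Omission of the lymphocyte-rich arrays was chosen after the data were seen. Further computation used Python 3.11.15, pandas 2.3.3, numpy 2.4.6 and scipy 1.17.1, and figures matplotlib 3.10.9.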

Additional observations from a re-analysis of the deposited data

How the results depend on the processing

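The number of glutathione S-transferase probes that passed depended on the processing. Between strains in sham tissue (1 of 16) it was 3 with normexp and with all 24 arrays in the fit, and 0 with quantile normalization, by the methods' t-test, with slide as a block over all 24 arrays and within slide 3, where BALB/c 8-week LDIR arrays stand against SPRET/EiJ LDIR arrays. It was 1 with slide as a random block, although no slide held both of these groups. Leaving out each array gave 0 to 1. Between strains in LDIR tissue (0) it was 3 with normexp, with all 24 arrays and without the lymphocyte-rich array, and 1 with quantile normalization, and 0 to 3 with an array left out. After LDIR in SPRET/EiJ (0) it was 1 with normexp and 3 with all 24 arrays, with or without slide. For the interaction (0) it was 2 with normexp, 1 with quantile normalization and 1 with slide, and 0 to 1 with an array left out, where Gstm2-3 passed without SPRET/EiJ LDIR B and Gstm2-1 without C. Between sham BALB/c tissues of 8 and 2 weeks (2) it was 0 by the methods' t-test and with slide, and 0 to 3 with an array left out. After LDIR in BALB/c it stayed 0 under every alternative run. The cause was not tested. For the 10 other glutathione genes that passed between strains in sham tissue, 133 of 170 values under alternatives kept the call and 37 kept the direction without passing. The losses were uneven. Gclc lost the call under 9 alternatives and kept it under 8, and Gstm6 and Nqo1 each lost it under 8 and kept it under 9. Each of the remaining genes lost it under 1 to 3.

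The replicate letters were not taken as pairing the arrays outside 2 weeks. At 8 weeks the deviations of same-lettered LDIR and sham BALB/c arrays correlated by -0.56, -0.56 and 0.55, but sham A and LDIR B were lymphocyte-rich. The check could therefore not decide on pairing there. With the replicate block the count between strains in sham tissue was 0 and that between 8 and 2 weeks 3, while the others stayed 0. A slide block within the LDIR strain comparison or between 8 and 2 weeks could not be fitted, since each slide held 1 group.

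Of 605 values of strain and time differences under alternatives, 533 kept direction and side of the threshold, 20 lost and 19 gained the call, and 33 changed sign. Between strains in sham tissue, Gsta3-1 turned to -1.08 with slide and all arrays, -0.74 within slide 3 and -0.12 by the mean of both probes, Gsta4 to -0.50 and Gstm2-3 to -0.030 with slide, and Gstm1-2 to 0.21 within slide 3. Gstt1-1 turned to 0.16 with quantile normalization, 0.19 within slide 3 and ranged from -0.25 to 0.30 with an array left out. Gstt1-2 turned to 0.0061 with normexp, 0.0011 with quantile normalization and 0.17 with slide, and ranged from -0.12 to 0.15. In LDIR tissue, Gsta3-1 turned to -0.34 with slide and -0.74 within slide 3, and Gstt1-2 to -0.045 within slide 3. Gstm1-1 turned to -0.38 with slide, -0.24 within slide 3 and -0.24 without the lymphocyte-rich array (-0.24 to 0.40 with an array left out). Gstm1-2 turned to -0.51 with slide and -0.34 without that array (-0.34 to 0.30). Mgst1-2 turned to -0.43 with slide, -0.73 within slide 3 and -0.41 without that array (-0.41 to 0.37), and Mgst1-1 ranged from -0.80 to 0.0020. The cause was not tested.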
